A study of Mus musculus with 12 samples.

Results

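The genes described here were 8 complement components and regulators (C3, C4b, C2, C1ra, Cfb, Cfd, Serping1 and Cd55), chosen by their symbols, and 8 of the 8 were found among the 27998 genes of the deposited matrices. They were measured by single-cell RNA sequencing (scRNA-seq) in 12 libraries of hind limb joint cells from wild-type male C57BL/6 mice aged 8 to 10 weeks. The mice of 9 libraries had serum transfer-induced arthritis (STIA): 100 μl of serum from K/BxN mice, whose antibodies attack joints, was injected into a vein and caused an arthritis that later subsided. The labels gave 3 libraries to rest (day 0, no serum), 3 to peak (days 7 to 9), 3 to resolving (day 15) and 3 to resolved (day 22), and each library pooled the joints of 3 animals, so that n counts pools.

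The joints had been digested with collagenase D and DNase I and then with collagenase dispase, and live cells without CD45, a surface protein of immune cells, had been sorted. A Ptprc transcript, which encodes CD45, was found in 0.294% of the kept cells, so immune sources of complement were nearly absent by design. Of 20060 kept cells, 12037 (60.0%) fell into 9 fibroblast-like clusters named from marker genes. In them Dcn was detected in 99.8%, Gsn in 98.4%, Serpinf1 in 93.6%, Lum in 89.6%, Pdpn in 55.6%, Fbln1 in 54.2% and Pdgfra in 52.7% of cells, and Ptprc in 0.0249%.

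Complement is a cascade of proteases and their substrates that tags targets for removal and recruits leukocytes. In the classical pathway the protease C1s, activated by the protease C1r, cleaves C4 and C2, whose fragments form an enzyme that cleaves C3. In the alternative pathway factor D cleaves factor B bound to a fragment of C3, which makes another C3-cleaving enzyme and amplifies the reaction. The liver supplies most complement of the blood, while fibroblasts and other resident cells make components locally. C1 inhibitor, the product of Serping1, inactivates C1r and C1s, and CD55 on the cell surface takes the C3-cleaving enzymes apart. Arthritis after transfer of K/BxN serum is known to need the alternative pathway.

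On GRCm38, the mm10 build of the files, the protein-coding genes C4b (chr17:34728380-34743882), Cfb (chr17:34856374-34862518) and C2 (chr17:34862604-34898265) lie close together on the minus strand, and C3 lies on the same chromosome and strand (chr17:57203970-57228136). C1ra is on chr6:124512405-124523443 and Cfd on chr10:79890853-79892655, both on the plus strand. Serping1 is on chr2:84765387-84775444 and Cd55 on chr1:130439027-130462744, both on the minus strand. The predicted gene Gm20547 overlaps C2 and Cfb on their own strand, where reads could have been dropped, and the deposited matrices held 0 UMIs for it. Values of C4b, C1ra and Cd55 are uncertain because each has a near-identical copy (C4a, C1rb and Cd55b), of which C1rb had 202 UMIs and Cd55b had 10, and C4a was not analysed here.

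RefSeq gave promoter sequence for 4 of the 8 genes (C3, C1ra, Cfd and Cd55). Those of C3, C1ra and Cd55 are shown because C3 and C1ra had their lowest level in the cluster of joint lining cells in which Cd55 had its highest. Each line is the 250 bases before the transcription start on GRCm38.p6, 5′ to 3′ on the gene's strand: C3 at chr17:57228137-57228386 (minus), C1ra at chr6:124512371-124512620 (plus) and Cd55 at chr1:130462745-130462994 (minus). RefSeq's start of C1ra lies downstream of the GENCODE start given above, so most of the C1ra stretch lies within the gene as GENCODE draws it. Capitals mark the letters TTNNGNAA on either strand, a loose form of the site of the C/EBP transcription factors.
C3: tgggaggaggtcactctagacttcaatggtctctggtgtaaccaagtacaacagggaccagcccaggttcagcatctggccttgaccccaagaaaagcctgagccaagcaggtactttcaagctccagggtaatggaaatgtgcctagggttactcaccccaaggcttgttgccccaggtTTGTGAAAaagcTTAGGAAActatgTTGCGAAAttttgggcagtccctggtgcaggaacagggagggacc
C1ra: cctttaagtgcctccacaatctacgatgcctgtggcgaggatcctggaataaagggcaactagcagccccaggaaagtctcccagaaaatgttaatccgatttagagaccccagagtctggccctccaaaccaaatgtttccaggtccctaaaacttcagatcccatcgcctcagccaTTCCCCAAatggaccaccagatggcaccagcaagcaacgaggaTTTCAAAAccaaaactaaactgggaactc
Cd55: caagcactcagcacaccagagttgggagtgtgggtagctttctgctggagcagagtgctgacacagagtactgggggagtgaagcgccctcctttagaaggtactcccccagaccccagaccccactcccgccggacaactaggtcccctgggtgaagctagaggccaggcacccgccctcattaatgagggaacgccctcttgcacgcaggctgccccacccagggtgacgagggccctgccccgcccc
The C3 promoter held 3 matches, which began at positions -70, -58 and -45 from the start and did not overlap, and that of C1ra held 2, at -72 and -29. The promoters of Cd55 and Cfd held none. Of 32851 mouse promoters of the same length, 36.8% held at least 1 match and 2.61% held 3 or more. The letters TTCNNNGAA of STAT factors (7.02% of all promoters) and TGANTCA of AP-1 (6.75%), and loose forms of the NF-kB site (1.41%) and the interferon-stimulated response element (2.98%), were in none of the 4 promoters, searched on both strands. Matches of letters are descriptions only and were not tested for binding.

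The 12 libraries held 1227 to 2747 kept cells and 7468914 to 16566202 UMIs (unique molecular identifiers, 1 for each captured RNA molecule) each. The median over deposited cells was 5358 UMIs in all 12 libraries, and whether depth had been evened out before deposit was not tested. No cell barcode was shared between libraries. The barcodes carry a suffix from 1 to 12 that orders the libraries. The libraries were grouped into 4 runs of 3 (1 to 3, 4 to 6, 7 to 9 and 10 to 12). This was done because earlier results of these data showed libraries of such runs to be alike. Each run held libraries of 3 different stage labels. Over 11802 genes of the fibroblasts, the library most like each one was in its own run for 12 of 12 libraries and had the same stage label for 0 of 12. The grouping came from these same data, so the likeness within runs and the run comparisons below describe it and do not test it. What a run stands for was not given in the sources used here. Stage labels were therefore compared as given, and runs were compared separately and not read as stages.

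Levels were given as UMIs of the gene per 1000000 UMIs of the cells summed in a library (CPM), and groups were compared with edgeR's quasi-likelihood test on the sums, n being libraries. A gene was called when its adjusted p (Benjamini-Hochberg, over all genes tested) was under 0.05 and its log2 fold change passed 0.5 or -0.5. Differences below are on the log2 scale with the standard error (SE). A sum reflects both how many of its cells made a transcript and how much each made, and these cannot be told apart in it. Counting intervals and limits given below cover counting error only.

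Fibroblast-like cells held 83.4% of the UMIs of the 8 genes, from 68.0% for C2 to 92.5% for C3 and 95.9% for Cfd, and 62.0% of the UMIs of all genes, to which the share of C2 was close. Against 11 other cell types, 78 of 88 pairs of gene and cell type were called higher in fibroblasts and 2 were called lower. Genes called higher ranged from 5 of 8 (against Schwann and erythroid cells) to 8 of 8 (against chondrocyte-like, lymphatic and vascular endothelial, muscle and proliferating cells). The same call was made for 9.14% of all 10412 genes tested against Schwann cells, 9.95% against erythroid, 10.9% against tenocyte-like, 15.3% against proliferating, 15.4% against osteoblast-like and 19.8% against immune cells. The share of genes higher in fibroblasts was 22.7% against chondrocyte-like, 24.3% against perivascular, 26% against lymphatic endothelial, 26.8% against vascular endothelial and 26.9% against muscle cells. The share of genes called lower in fibroblasts was 5.23% against Schwann, 5.56% against erythroid, 7.31% against tenocyte-like, 10.4% against muscle, 10.9% against proliferating, 11.1% against immune, 12.4% against osteoblast-like, 12.5% against lymphatic endothelial, 16.1% against perivascular, 17.4% against chondrocyte-like and 26.3% against vascular endothelial cells. The calls for Cfd rested on few cells, as described with that gene. The proliferating group was named by cell cycle genes alone, and which cell types it held was not tested. Of its cells 71.2% came from suffixes 4 to 6.

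**Figure D1:**
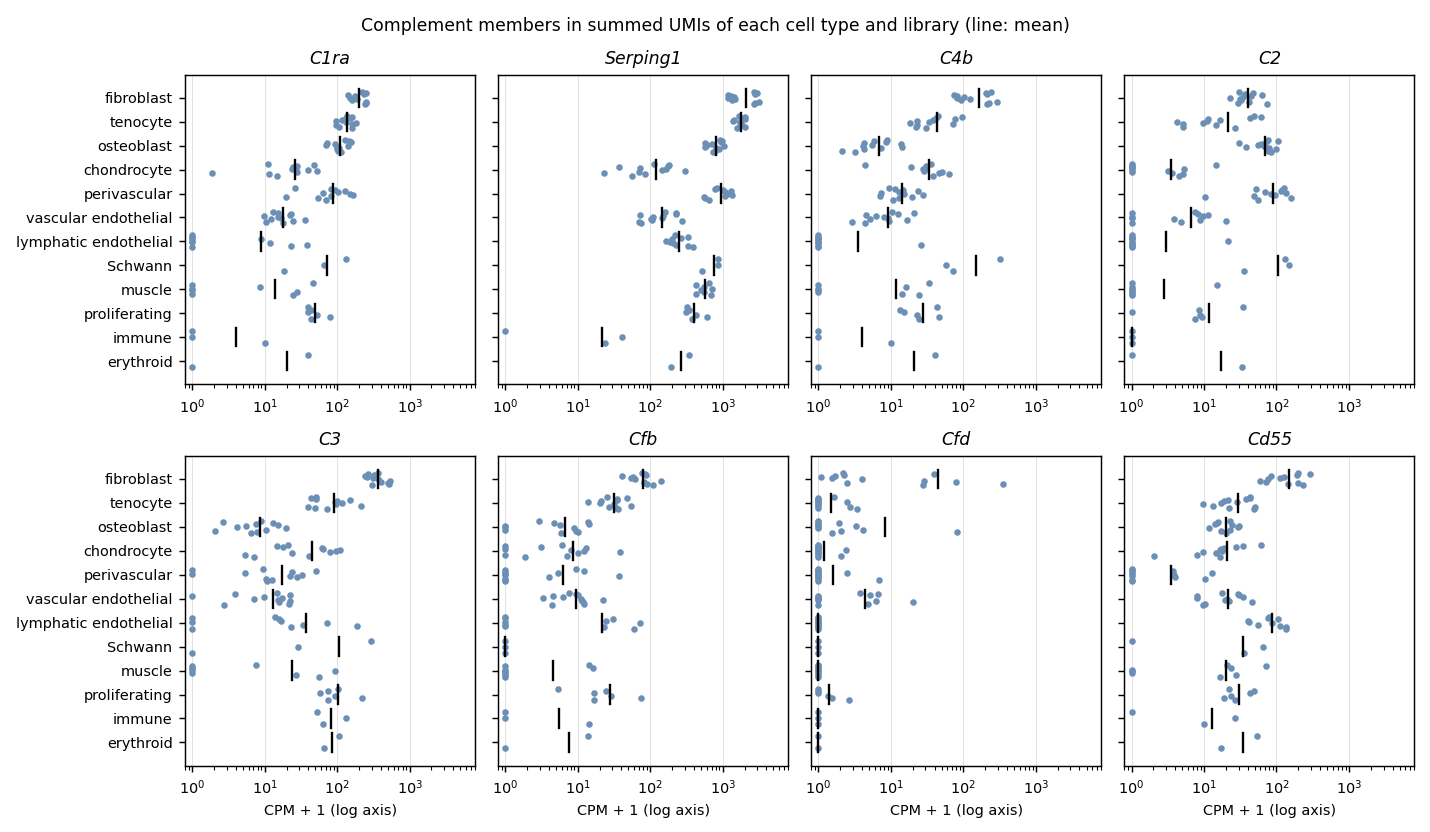
Level of each complement gene (x axis, CPM + 1, log scale) by cell type (y axis), where each point is a library and each black line the mean over libraries. Fibroblast-like cells have the highest mean for 7 of the 8 genes, while C2 is higher in Schwann, perivascular and osteoblast-like cells. The mean of Cfd, among the 7, rests on few cells with adipocyte markers and is not read as a level of fibroblasts.

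C1ra, which encodes the C1r protease, ranged from 138 to 251 CPM over the 12 fibroblast sums (median 202, mean 202 ± 42.2 SD) and was detected in 59.3% of fibroblasts. Tenocyte-like cells came next at 135 ± 28.3 CPM (SD, n = 12), below fibroblasts in 12 of 12 libraries (difference 0.54), followed by osteoblast-like cells at 110 ± 27.2 CPM. The ranges of these neighbours overlapped. In vascular endothelial cells, given for comparison here and below, C1ra was detected in 5.15% of cells at a median depth of 3177 UMIs, against 5790 UMIs in fibroblasts. After thinning every cell to 2000 UMIs the shares of vascular endothelial cells and fibroblasts were 2.81% and 33.5%. Free RNA was not measured, and its part in low levels here and below was not tested.

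Serping1, which encodes C1 inhibitor, was found in 94.1% of fibroblasts (83.8% after thinning) and ranged from 1171 to 3170 CPM with a median of 2078. Tenocyte-like cells had 1757 ± 219 CPM (SD, n = 12) and did not pass the test against fibroblasts (difference 0.12, SE 0.19, adjusted p = 0.699). The 12 tenocyte-like sums all lay above those of the perivascular cells, at 945 ± 270 CPM. Serping1 was detected in 20.5% of vascular endothelial cells (12.7% after thinning), 142 ± 68.3 CPM, a difference of 4.14 from fibroblasts.

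C4b, the C4 gene cleaved by C1s, ranged from 72.7 to 291 CPM in fibroblasts (median 164) and was detected in 31.4% of them, against 2.38% of vascular endothelial cells. Schwann cells had 147 ± 146 CPM (SD, n = 3) and differed from fibroblasts by less than the test could call (1.23, adjusted p = 0.0809). Tenocyte-like cells had 42.0 ± 24.6 CPM, a difference of 1.90.

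C2, the other substrate of C1s, had an order of its own. It ranged from 22.0 to 73.4 CPM in fibroblasts (median 34.4), from 29.6 to 103 in osteoblast-like (median 72.2) and from 9.26 to 159 in perivascular cells (median 89.1). Osteoblast-like cells were above fibroblasts in 11 of 12 libraries, and the ranges overlapped. Fibroblasts were called lower than perivascular cells (difference -0.97, SE 0.22, adjusted p = 0.000147) and lower than osteoblast-like cells (-0.74, SE 0.20, adjusted p = 0.00128), calls made for 16.1% and 12.4% of all genes tested. These were the 2 pairs called lower. Schwann cells had 105 ± 61.2 CPM (SD, n = 3), not called against fibroblasts (-0.67, adjusted p = 0.53). By share of cells, C2 was detected in 26.0% of osteoblast-like, 23.3% of perivascular and 15.3% of fibroblast-like cells, and in 1.41% of vascular endothelial cells. In 112 immune cells there were 0 UMIs of C2, which allows a share of cells with a UMI of up to 2.68% and sets no limit on the share of cells that express the gene.

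C3, the central substrate of the cascade, ranged from 241 to 529 CPM in fibroblasts (median 342) and was detected in 50.8% of them (35.9% after thinning), against 3.79% of vascular endothelial cells (2.04% after thinning). Schwann cells came next by mean at 106 ± 159 CPM (SD, n = 3), below fibroblasts in 3 of 3 libraries. Their highest library, at 289 CPM, lay within the fibroblast range. Proliferating cells had 102 ± 58.6 CPM (n = 6). Every one of the 12 fibroblast sums lay above every tenocyte-like sum, which ranged from 39.2 to 214 CPM (difference 2.13, SE 0.24). Osteoblast-like cells had 7.62 ± 5.25 CPM, a difference of 5.67 (SE 0.32), and C3 was found in 4.14% of them, near the vascular endothelial share.

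Cfb, which encodes factor B, ranged from 40.1 to 139 CPM in fibroblasts (median 80.4; detected in 28.0%, against 3.51% of vascular endothelial cells) and came next in tenocyte-like cells at 30.6 ± 11.4 CPM, lower in 12 of 12 libraries (difference 1.31). Cd55 ranged from 58.1 to 288 CPM in fibroblasts (median 135; 32.6% of cells, against 6.23%). The second highest Cd55 level was in lymphatic endothelial cells, 85.5 ± 35.1 CPM (SD, n = 10), below fibroblasts in 8 of 10 libraries (difference 1.43, SE 0.26). Cd55 was close to 0 in perivascular cells, with a median of 0 and a highest library of 11.8 CPM, a difference of 5.34 (SE 0.33).

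Cfd, which encodes factor D (adipsin, a product of fat cells), behaved unlike the other genes. Its 2830 UMIs lay in 105 cells, and 20 cells with at least 10 Cfd UMIs each (11 to 584) held 2711 of them (95.8%). Of these 20 cells 19 were grouped with fibroblasts, 13 of them in 1 cluster, and they came from 6 libraries, with 7 cells in peak replicate 1, 5 in rest replicate 2 and 3 in resolved replicate 1. The fibroblast sums accordingly ranged from 0.0811 to 349 CPM with a median of 2.25.

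The same 20 cells carried transcripts of the adipocyte marker list. Adipoq was detected in 19 of 20, against 0.175% of the other 12018 fibroblasts, Car3 in 20 against 1.22% and Lpl in 20 against 25.7%. Plin1 was detected in 6 of the 20, Cidec in 5 and Lep in 1. Of the other complement genes C4b was found in 16 of them, C3 in 11 and Cd55 in 1. Without these cells Cfd in fibroblasts was at most 2.1 CPM, did not pass the filter on low counts in any comparison and had no fitted value, and the count of pairs higher in fibroblasts fell from 78 to 70. No difference in Cfd between fibroblast clusters or runs is therefore read as one of fibroblasts.

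**Figure D2:**
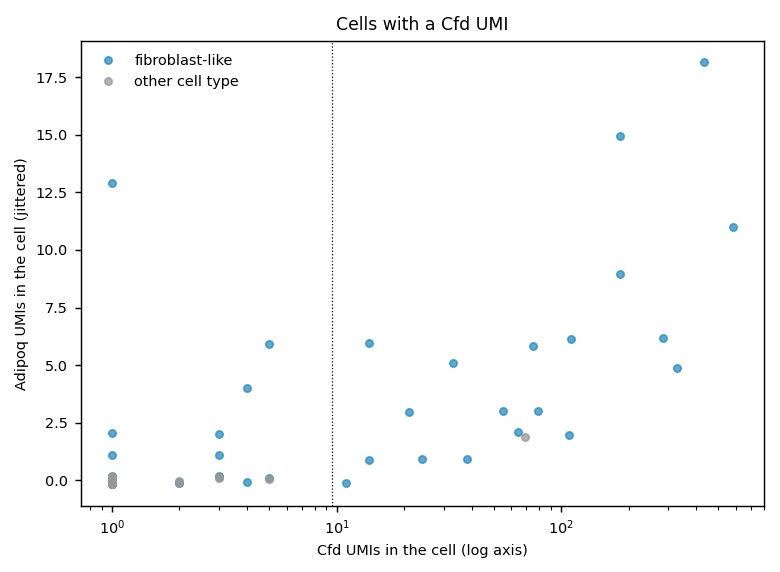
Cells with a Cfd UMI, by their Cfd UMIs (x axis, log scale) and their Adipoq UMIs (y axis, shifted slightly at random), with colours for fibroblast-like and other cells. The 20 cells with at least 10 Cfd UMIs hold 2711 of the 2830 UMIs, and Adipoq is detected in 19 of them.

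Fibroblast clusters were made without the complement genes, and are named here by their 2 leading genes. The cluster F13a1/Prg4 (1088 cells) was lining-like by the markers Prg4, Clic5, Tspan15, Htra4 and Itga6, the synovial lining being the surface layer that faces the joint cavity. The cluster Pi16/Krtdap (1851 cells) was sublining-like by Cd34, Pi16 and Dpp4, and the other 7 clusters were neither. Clustering used other genes of the same cells, with which complement genes may vary, so differences between clusters describe the clusters and are not independent of them.

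The lining-like cluster had less transcript of C3, C4b, C1ra, Cfb and the regulator Serping1 than the sublining-like one. The surface regulator Cd55 was not called. Of the 6 genes with enough counts to be tested, 5 were called lower in the lining (15.1% of all 5844 genes tested were) and 0 higher (12.6%). The median difference of the 6 genes was -2.72, and that of all genes tested was -0.01. C2 and Cfd did not pass the filter on low counts.

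C3 ranged from 1.61 to 48.4 CPM in the 12 lining-like sums (median 15.3) and from 434 to 1070 CPM in the sublining-like ones (median 668), with no overlap (difference -5.33, SE 0.25, adjusted p = 6.63e-14). Cfb lay between 0 and 13.8 CPM in the lining and between 41.9 and 111 CPM in the sublining, again without overlap (difference -3.69, SE 0.22, adjusted p = 3.91e-12). For C4b the ranges were 10.6 to 48.4 and 85.2 to 270 CPM (difference -2.89, SE 0.13, adjusted p = 6.63e-14). The C3, Cfb and C4b levels of the lining were thus lower in every library.

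C1ra, at 22.7 to 78.4 CPM in the lining and 209 to 362 CPM in the sublining, also did not overlap (difference -2.56, SE 0.13, adjusted p = 4.23e-13). Serping1 was lower by less (difference -1.32, SE 0.16, adjusted p = 6.29e-07). Cd55 ranged from 191 to 609 CPM in the lining and from 201 to 624 CPM in the sublining and was not called (difference 0.22, SE 0.11, adjusted p = 0.11). Cd55 was detected in 71.8% of lining-like and 60.4% of sublining-like cells (43.6% and 38.3% after thinning).

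**Figure D3:**
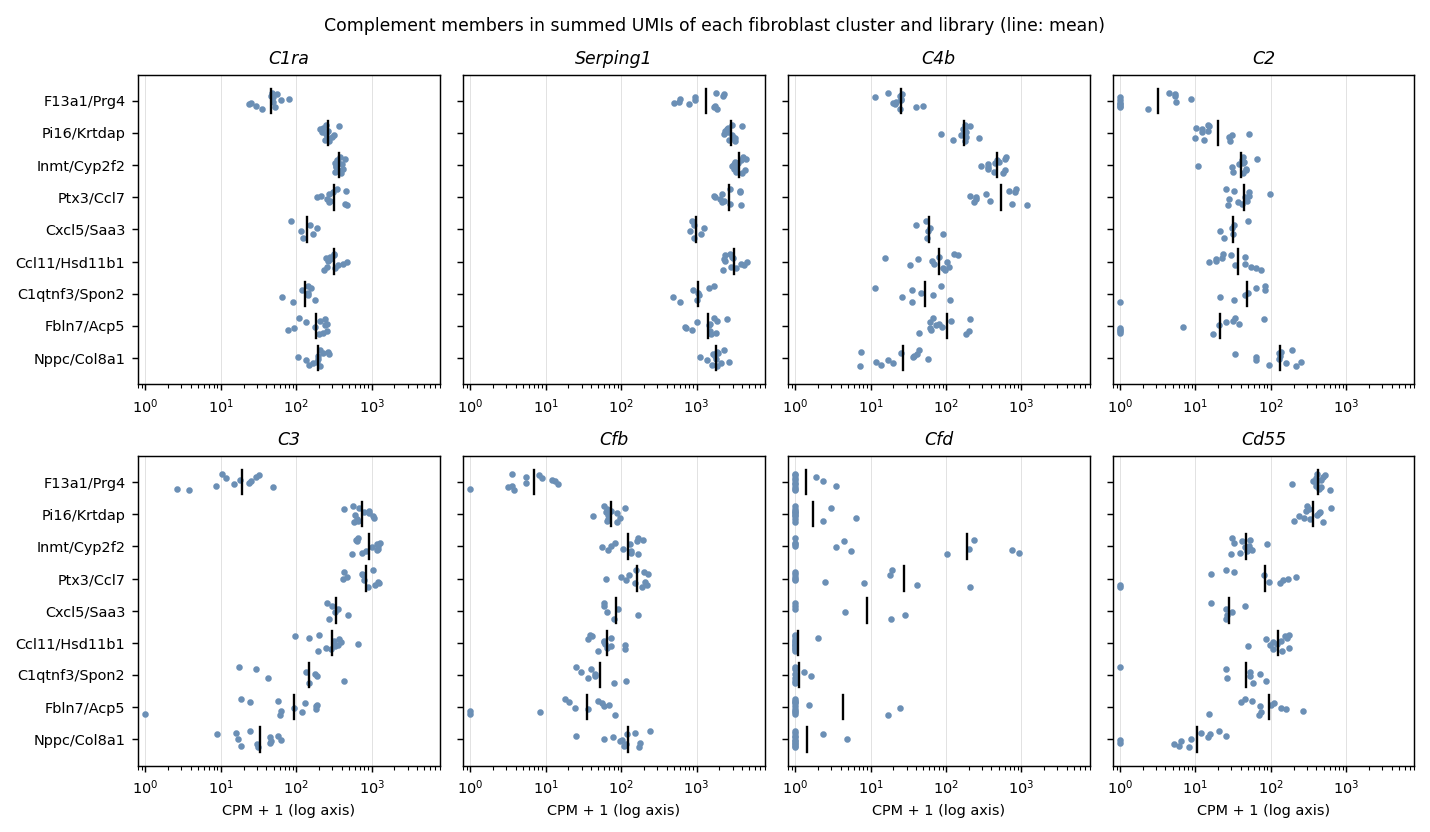
Level of each complement gene (x axis, CPM + 1, log scale) in the 9 fibroblast-like clusters (y axis), where each point is a library and each black line the mean over libraries. C3, C4b, C1ra, C2 and Cfb have their lowest mean in the lining-like cluster F13a1/Prg4, where Cd55 has its highest.

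Each cluster was next set against the equal-weight mean of the other fibroblast clusters over 7228 genes, and 31 of 72 pairs of gene and cluster were called higher and 20 lower. The clusters Inmt/Cyp2f2 (2265 cells) and Ptx3/Ccl7 (738 cells, led also by the inflammatory genes Ccl2, Cxcl1 and Il6) were highest for most genes, with 7 and 8 of 8 called higher where 11.1% and 10.2% of all genes were, and 1 and 0 called lower (6.52% and 4.19%). Both counts of genes called higher include Cfd, which rests on few cells. Their C3 levels were 929 ± 284 CPM (SD, n = 12; difference 2.69, SE 0.14) and 828 ± 302 CPM (n = 11; 2.59, SE 0.17), and the sublining-like cluster followed at 742 ± 206 CPM (2.19, SE 0.15). These 3 clusters did not separate beyond their spread. C4b was 542 ± 333 CPM in Ptx3/Ccl7 (difference 2.83, SE 0.15) and 468 ± 112 CPM in Inmt/Cyp2f2 (2.70, SE 0.13), and the latter lay above the sublining-like cluster in 12 of 12 libraries without overlap. Serping1 was highest in Inmt/Cyp2f2 at 3639 ± 555 CPM, with Ccl11/Hsd11b1 next at 3093 ± 793 CPM.

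Cd55 had another order of clusters. It was highest in the lining-like cluster (427 ± 101 CPM; difference 2.76, SE 0.13) and the sublining-like cluster (363 ± 121 CPM; 2.51, SE 0.14), and it was called lower in Inmt/Cyp2f2 (46.3 ± 15.8 CPM; difference -0.70, SE 0.19), where C3 and C4b were high. In Ptx3/Ccl7, where they were also high, Cd55 was called higher (81.7 ± 74.0 CPM, n = 11; difference 0.53, SE 0.20). In the lining-like cluster Cd55 was the gene called higher (13.2% of all genes were), and 6 of the other 7 were called lower (17.8%). Cd55 was lowest in Nppc/Col8a1, at 9.33 ± 7.42 CPM (difference -3.49), where C3 and C4b were low as well.

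C2 and Cfb had a further site in Nppc/Col8a1 (907 cells), in which the tendon markers Tnmd, Mkx and Fmod were also raised. Tendon markers were raised in C1qtnf3/Spon2 too (Tnmd, Thbs4 and Kera), the cluster with the next highest C2. In Nppc/Col8a1 C2 reached 132 ± 64.4 CPM (SD, n = 12; difference 2.31, SE 0.17) and lay above C1qtnf3/Spon2 in 7 of 8 libraries, and Cfb reached 121 ± 58.8 CPM (1.01). C3 (32.5 ± 17.5 CPM, difference -3.06) and C4b (25.5 ± 16.2 CPM, -2.66) were low in the same cells. These made 2 of 8 genes called higher and 3 lower, where 15.9% and 15.2% of all genes were called.

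Cxcl5/Saa3 (1531 cells, led by the acute phase genes Saa3, Hp and Slpi) had C3 called higher, at 332 ± 84.4 CPM (SD, n = 6). The C3 difference of 0.52 (SE 0.22, adjusted p = 0.0484 by edgeR) was close to both limits of a call. C3 in this cluster lay below that in the sublining-like cluster in 6 of 6 libraries. Cfb at 85.7 ± 40.8 CPM (0.70) was also called higher, and Cd55 (-1.73) and Serping1 (-0.78) were called lower. The cluster's 6 sums all came from suffixes 4 to 9, with 83.0% of its cells in 4 to 6 and 17.0% in 7 to 9. Its means are thus not matched by run to those of clusters with sums in all libraries. With Cfd, whose Cxcl5/Saa3 value rests on few cells, 3 of 8 were called higher there (11.9% of all genes) and 2 lower (13%). In Fbln7/Acp5, C3 (-1.15) and Serping1 (-0.58) were called lower, 2 of 8 (3.64%), and 0 higher (6.2%). Ccl11/Hsd11b1 had 4 of 8 genes called higher (10.6%) and 0 lower (7.51%), and C1qtnf3/Spon2 had 5 of 8 lower (9.63%) and 1 higher (10.1%). In the sublining-like cluster, whose Cd55 and C3 values are given above, 5 of 8 were called higher (9.08%) and 1, C2, lower (difference -1.26; 10.1% of all genes).

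Of single fibroblasts, 2.33% had UMIs of none of the 8 genes, 24.0% had UMIs of 3 of them and 1 cell had all 8. Over the 12 fibroblast sums, which share runs, the level of Serping1 followed that of C4b (Pearson's r = 0.98 of log2 CPM) and C1ra (0.96), and Cd55 followed Serping1 (0.85), while C3 and C2 went opposite ways (-0.65). These are descriptions over 12 libraries and carry no test. The genes most like each member by the same measure were Gstk1 for C3 (0.94), Tspan12 for C4b (0.99), Stc2 for C2 (0.82), Tap2 for C1ra (0.97), Exosc3 for Cfb (0.88), Dhrs7 for Serping1 (0.98) and Itih5 for Cd55 (0.99), and Apoc1 for Cfd (0.83).

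By stage label, no complement gene passed the test in fibroblasts. Whether the labels match the libraries was not tested, and the likeness by run and not by label given above bears on every comparison of stages. With 3 libraries a label, 0 of 8 genes were called for peak, resolving or resolved against rest by edgeR, as were 0% of the 11802 genes tested in each. At an unadjusted p under 0.05 there was 1 gene at peak, 0 at resolving and 1 at resolved, in both cases C2, and 102, 82 and 69 of all 11802 genes. C2 was 73.4, 30.7 and 61.4 CPM in rest replicates 1 to 3, and 28.1, 22.0 and 35.9 CPM in the peak libraries, which overlapped (difference -0.90, SE 0.28, unadjusted p = 0.00897, adjusted p = 1 by edgeR).

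C3 was 302, 529 and 241 CPM in the rest libraries, 521, 368 and 323 CPM at peak, 493.4, 314 and 263 CPM at resolving, and 398, 259 and 360 CPM at resolved. The mean and SD were 357 ± 152 CPM at rest, 405 ± 104 at peak, 357 ± 121 at resolving and 339 ± 71.9 at resolved, so that the labels overlapped throughout. With libraries of a label spread over different runs, the spread within labels holds any difference between runs.

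**Figure D4:**
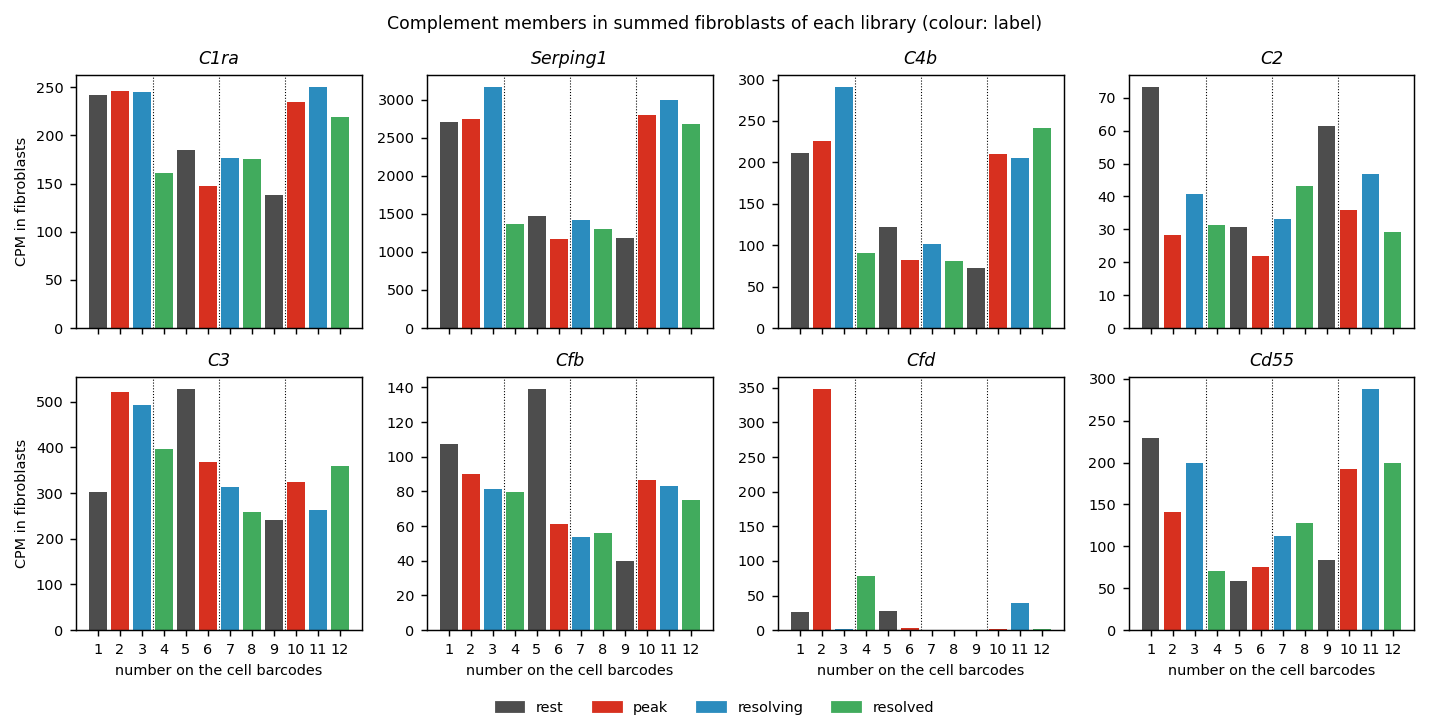
Level of each complement gene in fibroblasts (y axis, CPM, bars from 0) for the 12 libraries in the order of the number on their cell barcodes (x axis), with a colour for each stage label and dotted lines between runs. Serping1, C4b and C1ra are lower in suffixes 4 to 9 than in suffixes 1 to 3 and 10 to 12, and no gene separates by colour.

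By run, the fibroblast sums differed for 7 of 8 genes at an adjusted p under 0.05 (57.5% of all genes did), the exception being C2 (adjusted p = 0.18). The runs had been grouped by likeness in these same data, so these calls describe them and are no independent test. Serping1 was 2706, 2742 and 3170 CPM in suffixes 1 to 3 and 2791, 2997 and 2685 CPM in suffixes 10 to 12, but 1360, 1470 and 1171 CPM in suffixes 4 to 6 and 1424, 1304 and 1184 CPM in suffixes 7 to 9. The 6 low libraries did not overlap the 6 high ones. C4b was 211, 226 and 291 CPM in suffixes 1 to 3, 90.9, 122 and 81.9 CPM in 4 to 6, 101, 80.9 and 72.7 CPM in 7 to 9 and 210, 205 and 241 CPM in 10 to 12, with the same split.

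Cd55 was 230, 142 and 199 CPM in suffixes 1 to 3, 70.3, 58.1 and 75.2 CPM in 4 to 6, 112, 128 and 83.5 CPM in 7 to 9 and 192, 288 and 199 CPM in 10 to 12. Against suffixes 1 to 3, suffixes 4 to 6 had 3 of 8 genes called lower (17.1% of all genes) and 0 higher (16.5%). These were Cd55 (-1.39, SE 0.19), C4b (-1.20, SE 0.18) and Serping1 (-1.01, SE 0.12). In fibroblasts without the Cxcl5/Saa3 and Ptx3/Ccl7 clusters these were Cd55 -0.34 (SE 0.19, adjusted p = 0.291 by edgeR), no longer called, C4b -0.91 and Serping1 -0.51, a setting added after the pooled values had been seen. Suffixes 7 to 9 had 7 of 8 called lower (11.7%) and 0 higher (13.6%), with C4b at -1.46, Serping1 at -1.09, Cfb at -0.84, Cd55 at -0.76, C3 at -0.65 (SE 0.22, adjusted p = 0.0325), C1ra at -0.53, and Cfd, which rests on few cells. Without rest replicate 3 this count was 4, with the calls of C3 (-0.57, adjusted p = 0.109), Cfb (-0.71, adjusted p = 0.0659) and C1ra (-0.43) lost. In suffixes 10 to 12 there were 0 higher (1.25%) and 0 lower (0.551%) by edgeR, and 1 of 8 at an unadjusted p under 0.05, as were 2069 of all 11802 genes.

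The runs also differed in which fibroblasts they held. In suffixes 4 to 6 the Cxcl5/Saa3 cluster made up 44.7%, 41.2% and 48.9% of fibroblasts, and in suffixes 7 to 9 the C1qtnf3/Spon2 cluster made up 32.3%, 42.4% and 41.9%. The C3-rich Inmt/Cyp2f2 cluster made up 25.6%, 41.7% and 32.3% in suffixes 1 to 3, 18.9%, 12.4% and 12.01% in 4 to 6, 11.9%, 6.16% and 11.3% in 7 to 9, and 30.1%, 22.5% and 23.1% in 10 to 12. The sublining-like cluster, high in Cd55, C3 and Serping1, made up 24.6%, 31.4% and 33.1% in suffixes 1 to 3, 6.07%, 4.27% and 4.94% in 4 to 6, 9.13%, 5.52% and 5.94% in 7 to 9, and 27.4%, 25.2% and 27.8% in 10 to 12. The dissociation and immediate early genes, a sign of handling, summed to 21582 to 31188 CPM in suffixes 1 to 3 and 10 to 12 and to 16983 to 20527 CPM in suffixes 4 to 9. The part of each in the differences between runs was not tested.

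Within the Inmt/Cyp2f2 cluster C3 went the opposite way from the pooled fibroblasts of suffixes 7 to 9. In this cluster alone C3 was 546, 737 and 841 CPM in suffixes 1 to 3, 1180, 1214 and 1014 CPM in 4 to 6, 1228, 1185 and 1292 CPM in 7 to 9 and 633, 618 and 664 CPM in 10 to 12, so that the 6 middle libraries lay above the other 6. It was called higher than in suffixes 1 to 3 both in 4 to 6 (difference 0.73, SE 0.15, adjusted p = 0.0182) and in 7 to 9 (0.86, SE 0.15, adjusted p = 0.0139). In all fibroblasts the same differences were 0.07 (SE 0.22, adjusted p = 0.821) and -0.65.

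Within the cluster 1 member, C3, was called higher in suffixes 4 to 6 (0.699% of the 6294 genes tested) and in 7 to 9 (0.302%). In suffixes 4 to 6, 1 member was called lower (0.779%), Cfb at -0.90 (SE 0.22), which had been 0.11 in all fibroblasts. These comparisons by cluster were added after the pooled values had been seen.

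C3 had its higher means in suffixes 4 to 9 in cells outside the fibroblasts as well. In tenocyte-like cells it was 71.7, 49.1 and 39.2 CPM in suffixes 1 to 3, 214, 95.7 and 117 CPM in 4 to 6, 91.0, 98.6 and 147 CPM in 7 to 9 and 49.8, 42.4 and 49.8 CPM in 10 to 12. It was called higher in suffixes 4 to 6 (difference 1.35, SE 0.29, adjusted p = 0.0126), where 2.08% of all genes were called higher, and not in 7 to 9 (0.98, SE 0.28, adjusted p = 0.0787). In chondrocyte-like cells the means by run were 16.9, 65.1, 76.4 and 16.7 CPM, which were not tested. In the sublining-like cluster they were 622, 899, 888 and 559 CPM, and the differences of 0.54 and 0.57 from suffixes 1 to 3 were not called. In that cluster 0 members were called in any run by edgeR, where the calls over all genes were 0.749% higher and 0.504% lower in suffixes 4 to 6, 0.504% and 0.144% in 7 to 9, and 0.921% and 0.245% in 10 to 12.

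Serping1 and Cd55 fell within some clusters as they did in the pool. Serping1 in the lining-like cluster went from a mean of 1764 CPM in suffixes 1 to 3 to 627 CPM in 4 to 6 and 832 CPM in 7 to 9 (differences -1.53, SE 0.18, and -1.13, SE 0.18), where 7.08% and 4.03% of all genes were called lower. Cd55 was called lower in suffixes 4 to 6 in lining-like (-0.65, SE 0.21, adjusted p = 0.0443) and tenocyte-like cells (-1.68, SE 0.41, adjusted p = 0.0273; 1.73% of all genes were called lower). Its differences in Inmt/Cyp2f2 (0.46 and 0.66) had the opposite sign and were not called. C2 was called higher in tenocyte-like cells of suffixes 10 to 12 (1.64, SE 0.32, adjusted p = 0.0278; 0.477% of all genes).

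**Figure D5:**
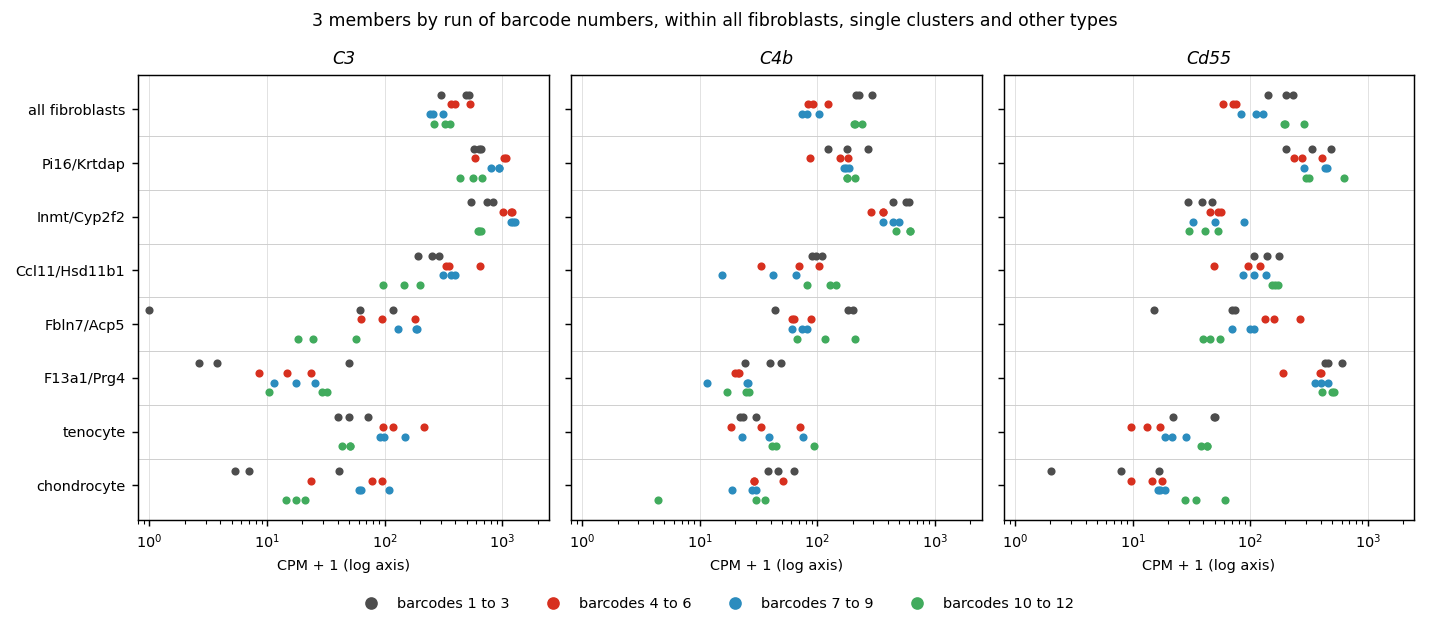
Level of C3, C4b and Cd55 (x axis, CPM + 1, log scale) in all fibroblasts, in single fibroblast clusters and in tenocyte-like and chondrocyte-like cells (y axis), where each point is a library and its colour the run of barcode suffixes. C3 is higher in suffixes 4 to 9 within Inmt/Cyp2f2, while in all fibroblasts it is not.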

How the data were processed

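Single-cell RNA sequencing was done with the 10x Genomics 3′ version 2 kit on live CD45- cells of 12 libraries. The authors aligned reads to mm10 with Cell Ranger and deposited raw UMI counts per gene and cell. Cells with over 500 and under 5000 genes and over 500 UMIs were kept, with an upper limit of 20000 UMIs (40000 for libraries labelled peak, 25000 or 30000 for resolving), as the study's methods state, which left 20060 of 21042 cells. Cells were clustered in scanpy 1.11.5 (2000 variable genes without the complement genes, 30 components, 20 neighbours, Leiden resolution 1) and named when at least 4 markers of a class were detected in 20% of cells at a log2 fold change over 1, or as fibroblast-like with 5 of 7 markers in 30% of cells. 1 cluster of 132 cells stayed unnamed. Scrublet's own threshold marked 56 cells (0.279%) as doublets, so doublets stayed in, and an alternative removed the 6% of cells with the highest scores.

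UMIs were summed per library and class with at least 10 cells and tested with edgeR 4.0.16 (TMM, filterByExpr, two-sided quasi-likelihood test; R 4.3.3), with the library as a block between cell classes and no block between labels or runs. Adjusted p-values are Benjamini-Hochberg values over all genes tested. The SE was the log2 fold change divided by the square root of F. DESeq2 1.42.0 was an alternative. The fits were tested on simulated counts. The 8 members and the wider list, of which the 3 largest calls each way per comparison may be named, were chosen with earlier results of these data known; some genes of the wider list are not reported here by name. Libraries are pools of 3 animals, and p-values between labels or runs measure the spread between pools. Those between cell classes, with the library as a block, measure how the differences between classes vary over the pools. Gene positions came from GENCODE M21, which held 27645 of 27998 identifiers, and promoters from RefSeq on GRCm38.p6.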

Additional observations from a re-analysis of the deposited data

Results flagged for a closer look

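In 12 of 38 groups of 4 to 10 libraries tested, the highest library stood apart from the others by Dixon's criterion. Chance meets it in about 1 in 20 groups of normally distributed values, which low counts are not. A group with 0 in all other libraries always meets it, so the count is not compared with that rate. Most were low levels in small sums. In lymphatic endothelial cells C3 was 187 CPM in resolved replicate 1 (next 71.4), C4b was 24.97 CPM in the same library (0 in the next) and C2 was 20.2 CPM in resolving replicate 2 (0 in the next). In muscle cells C2 was 14.2 CPM (0 in the next) and Cd55 71.1 CPM (next 26.2), both in resolving replicate 3.

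Rest replicate 2 was the high library in 5 of the 12. In proliferating cells it had C3 at 217 CPM (next 102), C1ra at 79.4 CPM (next 51.7) and Cfb at 73.6 CPM (next 27.6), and in fibroblasts C3 at 427 CPM in C1qtnf3/Spon2 (next 185) and Cfb at 165 CPM in Cxcl5/Saa3 (next 89.7). Proliferating cells also had C2 at 34.1 CPM in rest replicate 3 (next 8.53) and Cfd at 1.61 CPM in resolved replicate 1 (next 0.533).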

How the results depend on the processing

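The numbers of members called by cell type, by cluster, by stage label and by run were recomputed with RLE size factors, no filter on low counts, DESeq2, removal of cells with high doublet scores, cells thinned to 2000 UMIs, other blocks, other clustering and cell limits, and each library left out in turn. Of 6482 alternative values of single genes, 199 lost the call, 36 gained it and 20 changed sign where at least 1 of the 2 fits made a call. The other 6227 changed no call, and values that were called in neither fit may have changed sign among them. By cell type, pairs called lower in fibroblasts were 1 with DESeq2 and 1 after thinning in place of 2. At Leiden resolution 0.5, pairs by cluster were 12 higher and 11 lower in place of 31 and 20, with fewer clusters to compare. Leaving out libraries gave 74 to 79 pairs higher and 2 lower by cell type, 27 to 31 higher and 18 to 22 lower by cluster, 0 higher and 5 lower between lining and sublining, 0 by stage label, 5 to 8 across runs, 3 to 4 lower in suffixes 4 to 6 and 4 to 7 lower in suffixes 7 to 9, the 4 without rest replicate 3. With the replicate number of the labels as a block, 0 members were called by stage label, the smallest adjusted p being 0.99. The deviations of same-numbered libraries correlated with r from -0.49 to 0.64 over 18 pairs, and the numbers were therefore not treated as pairs.

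The run comparisons changed most with the cells summed, settings added after the pooled values were seen. Members that differed across runs (7 in pooled fibroblasts) were 1 in lining-like, 0 in sublining-like, 3 in Inmt/Cyp2f2 and 3 in tenocyte-like cells, where 19.7%, 4.06%, 4.08% and 8.31% of all genes did. In suffixes 7 to 9, 7 lower (11.7% of all genes) became 3 in all cells and 1 in lining-like cells (4.03%). There were 0 lower in sublining-like (0.144%), Inmt/Cyp2f2 (0.0318%) and tenocyte-like cells (0.778%), and 1 was higher in Inmt/Cyp2f2 (0.302%). In suffixes 4 to 6, 3 lower (17.1%) became 0 in sublining-like (0.504%), 1 in Inmt/Cyp2f2 (0.779%) and 1 in tenocyte-like cells (1.73%). In each of the last 2, 1 was higher (0.699% and 2.08%). In suffixes 10 to 12, 1 was lower without a filter and 1 was higher in tenocyte-like cells (0.477%). No share over all genes is given for all cells or without a filter. The calls over all genes thus fell with the cells summed as well.

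Among values called in at least 1 of the 2 fits, reversed signs in suffixes 4 to 6 were Cd55 0.46, Cfb -0.90 and C7 0.23 in Inmt/Cyp2f2, and C4b 0.58 and C1qbp -0.069 in tenocyte-like cells. In suffixes 7 to 9 they were C3 0.30 in lining-like, 0.57 in sublining-like, 0.86 in Inmt/Cyp2f2 and 0.98 in tenocyte-like cells, Cd55 0.29 in sublining-like cells and 0.66 in Inmt/Cyp2f2, C1ra 0.71 in lining-like cells and 0.085 in Inmt/Cyp2f2, Cfb 0.11 in sublining-like and C4b 0.69 in tenocyte-like cells, and in suffixes 10 to 12 C2 1.64 in tenocyte-like cells. At Leiden resolution 0.5, C1qtnf3/Spon2 gave C1ra 0.46 and Cfb 0.83, and C2 against tenocyte-like cells was -0.24. Vtn against Schwann cells ranged from -2.35 to 0.88 as libraries were left out, the latter without peak replicate 3. The cause was not tested. Sums of Schwann, immune and erythroid cells came from 3 or fewer libraries, and Cfd from few cells.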

Other observations

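A wider list of 48 complement genes, of which 47 were in the files, held genes higher in other cell types and genes higher in fibroblasts. Of 21 list genes tested by cell type with edgeR, 8 were called lower in fibroblasts than in immune cells (11.1% of all genes tested were) and 3 higher (19.8%). In fibroblasts 7 were called higher and 0 lower against proliferating cells, and 7 and 6 against vascular endothelial cells. The counts were 6 and 2 against each of chondrocyte-like, lymphatic endothelial and muscle cells, and 4 and 2 against tenocyte-like cells. They were 4 and 4 against osteoblast-like, 4 and 6 against perivascular, 2 and 3 against Schwann and 2 and 1 against erythroid cells. The shares of all genes are given above for each cell type. C1qa, a chain of the recognition molecule C1q, was 457 ± 436 CPM in immune cells (SD, n = 3). Clu, whose product clusterin restrains the membrane attack complex, was 6174 ± 7137 CPM in chondrocyte-like and 2997 ± 1143 CPM in tenocyte-like cells against 127 ± 45.3 CPM in fibroblasts (SD, n = 12), with differences of -5.38 (SE 0.39) and -4.60 (SE 0.37). Cd93 was 494 ± 104 CPM in vascular endothelial cells (difference -8.43, SE 0.20), and Vtn was 218 ± 62.5 CPM in perivascular cells against 10.9 ± 3.18 CPM in fibroblasts (-4.04, SE 0.15). C1s1, the partner protease of C1ra, was 354 ± 88.8 CPM in perivascular cells and 198 ± 27.6 CPM in fibroblasts. C1s1 was called higher in fibroblasts than in lymphatic endothelial (7.68), immune (5.24), muscle (4.35) and chondrocyte-like cells (4.25). The same call was made against proliferating (2.28), Schwann (1.60), erythroid (1.38) and osteoblast-like cells (1.06).

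Within fibroblasts the list varied by cluster too. Of 7 list genes tested between lining-like and sublining-like cells, 2 were called higher (Cpn1, 3.80, and Colec12, 1.76; 12.6% of all genes tested were) and 2 lower (15.1%), among them C1s1 (-3.56). In Inmt/Cyp2f2, 4 of 11 list genes were called higher (11.1% of all genes), among them C7 (3.59) and C1s1 (1.23). In Nppc/Col8a1, 5 of 11 were called higher (15.9%), among them Cd59a (2.41) and Clu (1.77), and 2 lower (15.2%), with Vtn at -5.73.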
